A study of Mus musculus with 12 samples.

Results

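This account concerns the H3K4me3 peaks that sit at the ends of neighbouring genes in mouse back skin. A peak was taken when its midpoint lay within 1 kb of a start or an end of at least 2 different protein-coding genes in the RefSeq gene table. The rule used positions and no measured value, and it found 543 of the 5464 peaks in the H3K4me3 list (9.94%, exact 95% interval 9.16 to 10.8). In 529 of them the ends belonged to 2 genes and in 14 to 3 genes, and together they touched 994 genes. The remaining peaks were 2661 at the end of 1 gene, 1486 inside a gene and more than 1 kb from any gene end, and 774 between genes. Members thus made up 16.9% (15.7 to 18.3) of the 3204 peaks at any gene end.

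The samples were chromatin immunoprecipitation libraries of back skin from mice 8 to 10 weeks old, read by sequencing, with 5 Gy of ionizing radiation as the treatment of every group. The p53 antibody was used at T0 and 6 h in K17KO skin and in wild-type (WT) skin, and the H3K4me3 antibody in WT skin alone at both times, with 2 samples in each of the 6 groups. The deposited data are 3 lists of peaks, for K17KO p53, for p53 with no genotype in its name, taken here as WT, and for H3K4me3, and none of them separates T0 from 6 h. No source used here says what K17KO stands for, which skin cells carry the change, or whether the samples of 1 group are separate animals. No H3K4me3 list of K17KO skin was analysed here, so H3K4me3 was described in WT skin alone. No value below has a replicate error, and the intervals cover counting error only.

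H3K4me3, the trimethylated form of lysine 4 on histone H3, is placed on nucleosomes just downstream of transcription start sites, mostly at promoters rich in CpG dinucleotides. Many mammalian genes share such a promoter with a neighbour on the other strand. In these divergent pairs the starts lie close together, back to back, transcription runs away from the shared stretch on both sides, and the stretch between the starts is kept largely free of nucleosomes. Genes of DNA repair, histones and mitochondrial proteins are well-known examples. In a tandem pair both genes are on the same strand, so that the end of one precedes the start of the next, and in a converging pair the ends face each other.

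The promoters of 7 pairs are shown because the results below turn on them. Each runs from 250 bases before to 50 bases after the start of the first gene named, on that gene's strand, 5′ to 3′, so that start is at position 251. Distances in the text are from the gene table's outermost start, which is 30 bp before the window's start for Hgs, 16 bp for Nudcd2 and 147 bp for Dbp, and the same for the other 4. The sequences are from RefSeq, assembly GRCm38.p6, whose coordinates are those of mm10. Capitals mark matches, on either strand, to 5 of the 8 motifs searched. The CCAAT box was searched as CCAAT, the GC box as GGGCGG, the NRF1 core as GCGCATGC, the E-box as CACGTG and the TATA box as TATAAA. Matches may overlap, and a stretch that matches on both strands is counted on each unless it reads the same on both.
H2ac22 (with H2bc22, chr13:21787199-21787498, minus strand): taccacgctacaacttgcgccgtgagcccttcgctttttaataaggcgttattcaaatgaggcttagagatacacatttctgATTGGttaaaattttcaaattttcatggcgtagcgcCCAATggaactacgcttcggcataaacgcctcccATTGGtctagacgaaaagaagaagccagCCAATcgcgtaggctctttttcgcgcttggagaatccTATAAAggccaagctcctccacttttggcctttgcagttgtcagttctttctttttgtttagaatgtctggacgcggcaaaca
Tap1 (with Psmb9, chr17:34187306-34187605, plus strand): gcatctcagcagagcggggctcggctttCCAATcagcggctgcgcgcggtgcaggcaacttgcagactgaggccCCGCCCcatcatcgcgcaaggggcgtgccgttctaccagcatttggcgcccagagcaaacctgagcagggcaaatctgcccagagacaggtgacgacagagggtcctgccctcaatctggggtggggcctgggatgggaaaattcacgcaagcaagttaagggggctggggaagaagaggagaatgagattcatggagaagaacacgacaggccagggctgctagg
Polh (with Xpo5, chr17:46202592-46202891, minus strand): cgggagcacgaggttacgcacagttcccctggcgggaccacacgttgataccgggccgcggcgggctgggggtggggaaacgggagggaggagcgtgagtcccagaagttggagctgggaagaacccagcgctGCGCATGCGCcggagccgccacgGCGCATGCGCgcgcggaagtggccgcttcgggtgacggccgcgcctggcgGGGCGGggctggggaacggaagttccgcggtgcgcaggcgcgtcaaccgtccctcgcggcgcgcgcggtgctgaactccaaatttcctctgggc
Apex1 (with Osgep, chr14:50924699-50924998, plus strand): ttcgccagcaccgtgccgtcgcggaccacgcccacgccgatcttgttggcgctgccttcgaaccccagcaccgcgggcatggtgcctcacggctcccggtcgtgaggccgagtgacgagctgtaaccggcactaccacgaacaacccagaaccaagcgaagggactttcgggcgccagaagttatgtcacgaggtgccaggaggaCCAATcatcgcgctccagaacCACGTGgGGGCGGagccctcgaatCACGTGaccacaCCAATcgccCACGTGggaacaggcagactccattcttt
Hgs (with Arl16, chr11:120467385-120467684, plus strand): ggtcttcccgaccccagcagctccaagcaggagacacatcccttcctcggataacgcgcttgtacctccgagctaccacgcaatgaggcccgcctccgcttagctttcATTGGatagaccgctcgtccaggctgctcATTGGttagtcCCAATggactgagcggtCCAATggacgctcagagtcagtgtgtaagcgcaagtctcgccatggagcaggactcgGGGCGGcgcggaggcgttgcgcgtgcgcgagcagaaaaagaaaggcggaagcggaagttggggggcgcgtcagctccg
Nudcd2 (with Hmmr, chr11:40733411-40733710, plus strand): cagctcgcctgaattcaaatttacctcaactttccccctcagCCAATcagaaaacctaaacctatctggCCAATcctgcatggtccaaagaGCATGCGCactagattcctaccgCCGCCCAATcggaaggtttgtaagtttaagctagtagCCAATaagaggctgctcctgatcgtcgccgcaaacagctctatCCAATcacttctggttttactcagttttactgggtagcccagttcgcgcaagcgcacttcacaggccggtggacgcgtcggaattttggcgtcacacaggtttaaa
Dbp (with Car11, chr7:45704997-45705296, plus strand): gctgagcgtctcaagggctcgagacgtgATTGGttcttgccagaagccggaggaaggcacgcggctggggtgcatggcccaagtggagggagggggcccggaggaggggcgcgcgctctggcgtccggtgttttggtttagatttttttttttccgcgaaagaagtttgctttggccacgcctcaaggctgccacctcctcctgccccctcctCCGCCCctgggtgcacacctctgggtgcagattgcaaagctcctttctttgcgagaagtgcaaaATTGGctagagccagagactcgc
In the first 6 windows the start of the neighbouring gene also falls inside the sequence. It is at position 16 for H2bc22, 25 for Psmb9, 81 for Xpo5, 195 for Osgep, 216 for Arl16 and 54 for Hmmr. The H2ac22 stretch, between genes of histones H2A and H2B, held 4 CCAAT boxes and 1 TATA box and had a GC content of 45%. The Polh stretch, at a translesion DNA polymerase gene, held 4 NRF1 core matches, which are 2 overlapping pairs on opposite strands, and was the richest in CpG, with 42. The Apex1 stretch, at a base-excision repair endonuclease gene, held 3 E-boxes, 2 CCAAT boxes and 1 GC box. The Nudcd2 stretch held 5 CCAAT boxes, 1 of which shares bases with its only GC box, and the Hgs stretch held 4 CCAAT boxes and 1 GC box. The Dbp window, at the gene of a transcription factor driven by the circadian clock, held 2 CCAAT boxes and 1 GC box. A match describes the letters only.

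Most members stood at back-to-back starts. The strand of the genes was known for enough of the pair to give an arrangement in 415 members. Among these, 312 were divergent (75.2%, 70.7 to 79.3), 78 were tandem (18.8%, 15.2 to 22.9) and 4 were converging (0.964%, 0.263 to 2.45). In 8 more the genes were on opposite strands with starts over 1 kb apart, in 6 of them because the genes overlap at their 5′ ends, with the midpoint inside both, and in 2 with a wide gap. Another 13 had some other arrangement. For the remaining 128 members the strand of a gene was not in the table used, so the share of divergent pairs over all 543 members is at least 57.5%.

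**Figure D1:**
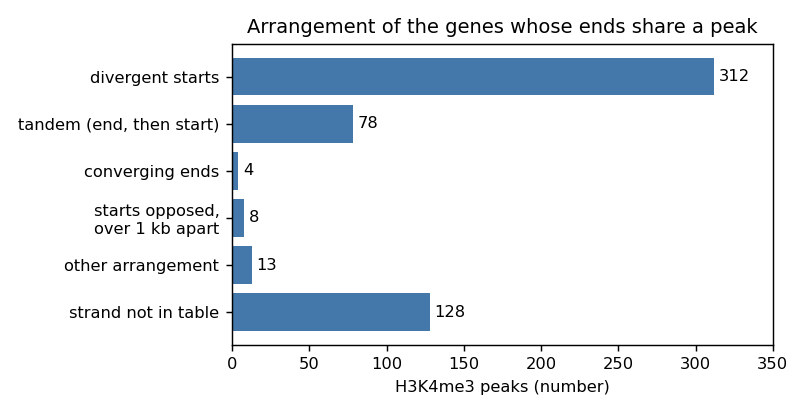
Number of H3K4me3 peaks (horizontal axis) at gene ends shared by neighbours, by the arrangement of the genes (vertical axis). Divergent starts, with 312 peaks, outnumber tandem pairs, with 78, and converging ends, with 4. The strand was not in the table for 128.

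The starts of the divergent pairs were close. The median gap was 56.5 bp (quartiles -37 and 146). A negative gap means that the genes overlap at their 5′ ends, as in 94 members; 200 had a gap of 0 to 300 bp and 18 a wider one. Peak midpoints seldom lay in the gap, which was short or absent. The peaks were 238 to 1065 bp wide, so a peak centred inside a gene can still reach over the gap. In 285 of the 312 members (91.3%, 87.7 to 94.2) the midpoint lay inside exactly 1 gene of the pair, in 25 it lay inside both because the genes overlap, and in 2 it lay between the starts. The gene on the minus strand held the midpoint in 146 and the gene on the plus strand in 139, so neither strand was preferred beyond the counting intervals (46.8%, 41.2 to 52.5, and 44.6%, 39.0 to 50.3). The midpoint was a median of 314 bp into the gene (quartiles 265 and 409). At peaks with 1 gene end that was a start, 1854 of 2062 midpoints lay inside the gene (89.9%, 88.5 to 91.2), at a median depth of 320 bp (quartiles 257 and 466). Within the 1 kb that the rule allows, the depth at divergent members was close to that at peaks with 1 gene end. Both sets were chosen by position, so this is a description only.

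**Figure D2:**
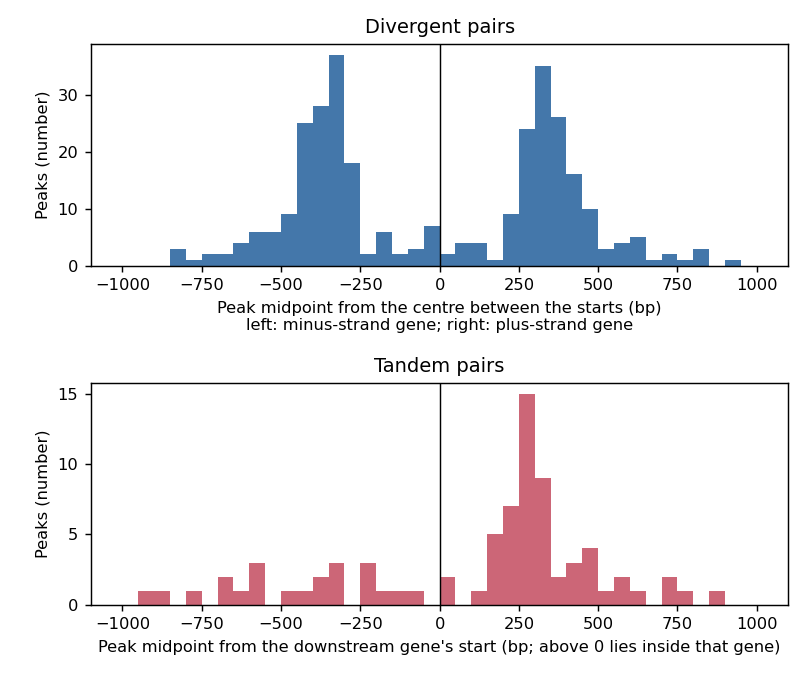
Peak midpoints by position in bp (horizontal axes) and number of peaks per 50 bp bin (vertical axes). Upper panel: 312 divergent pairs, with 0 at the centre between the starts; the counts form a group on each side, near the 314 bp median depth, and few lie at the centre. Lower panel: 78 tandem pairs, with 0 at the start of the downstream gene and 56 midpoints above 0, inside that gene.

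A divergent pair could carry a peak on each side. The 312 members belonged to 279 distinct pairs, and 32 pairs (11.5%, 7.98 to 15.8) had a peak inside each gene. The midpoints of these peaks were 586 to 1260.5 bp apart, with a median of 743 bp. The deposited fold enrichment of a peak, its fragment pileup over the peak caller's background, was a median of 1.16 times and at most 1.48 times as high on the higher side as on the lower. Divergent members as a whole lay in a narrow range of fold (quartiles 1.402 and 1.661), so this ratio is no measure of likeness within pairs. The widest ratio was at Noc4l and Ddx51, a ribosome assembly factor and an RNA helicase, with 1.93-fold on 241 fragments in Noc4l and 1.302-fold on 195 in Ddx51. Aurka, a mitotic kinase, had 2.097-fold on 128 fragments, and its neighbour Cstf1, a factor of messenger RNA cleavage, 1.56-fold on 235. Fold and fragments ran opposite ways there, since the background differs between the sides. Hgs, an endosomal sorting protein, had 1.67-fold on 242 fragments and Arl16, a small GTPase, 1.78-fold on 190. H2ac24 and H4bc24 were nearly equal, at 1.90-fold on 138 and 1.90-fold on 175 fragments. Pairs other than Aurka with Cstf1 and Hgs with Arl16 are named here after their values were seen. A pair with a peak on 1 side is not shown to lack the mark on the other, since the median member had a fold of only 1.54.

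Tandem members lay mostly in the downstream gene. The midpoint was inside the downstream gene in 56 of 78 (71.8%, 60.5 to 81.4), inside the upstream gene in 14 (17.9%, 10.2 to 28.3) and between the genes in 8 (10.3%, 4.53 to 19.2). The median midpoint was 253.5 bp past the downstream start and 532.5 bp past the upstream end, and the median distance between the genes was 321.5 bp. In 60 of 78 (76.9%, 66.0 to 85.7) the midpoint was nearer to the start than to the end. The converging members were 4 peaks with low counts, at Ccl27b and Il11ra2, a chemokine and an interleukin receptor gene (3.07-fold, 25 fragments), at Slc34a1 and Pfn3, a phosphate transporter and a profilin (2.64-fold, 14), at Mink1, Chrne and 4930544D05Rik (2.16-fold, 94), and at Hspb9 and Rab5c (1.83-fold, 42). Some of these midpoints also lay near a start, 145.5 bp inside Pfn3 and 196 bp inside Hspb9.

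Counted from the side of the genes, starts in a divergent pair had a peak within 1 kb most often. Of 1795 starts with a divergent start within 1 kb, 577 had an H3K4me3 midpoint within 1 kb (32.1%, 30.0 to 34.4). Of 498 starts behind the end of a same-strand gene, 88 had one (17.7%, 14.4 to 21.3), and of 14824 starts with no neighbour, 1964 (13.2%, 12.7 to 13.8). Starts with a neighbour in another arrangement had one in 21 of 97 (21.6%, 13.9 to 31.2). Starts beside a gene of unknown strand had one in 73 of 278 (26.3%, 21.2 to 31.8). A start in a divergent pair can be credited with the neighbour's peak, so midpoints inside the gene itself were counted too. These were found at 347 of the 1795 divergent starts (19.3%, 17.5 to 21.2), 73 of the 498 tandem starts (14.7%, 11.7 to 18.1) and 1817 of the 14824 starts with no neighbour (12.3%, 11.7 to 12.8). Among promoters with a CpG ratio of at least 0.6, the observed number of CpG over the number that the base content gives, the shares were 20.5% of 1490 (18.5 to 22.7), 21.2% of 259 (16.4 to 26.7) and 22.2% of 6482 (21.2 to 23.2). Above this floor the intervals of the 3 sets overlap; the CpG ratios of the sets were not matched. Midpoints 0 to 1 kb before the start, which in a divergent pair can lie in the neighbour, were found above the same floor at 17.9% of divergent starts, 6.95% of tandem starts and 2.79% of starts with no neighbour. Of gene ends, 78 of 508 before a same-strand start had a peak (15.4%, 12.3 to 18.8), 15 of 1441 converging ends (1.04%, 0.584 to 1.71) and 90 of 15064 ends with no neighbour (0.597%, 0.481 to 0.734). Ends with a neighbour in another arrangement had one in 20 of 114 (17.5%, 11.1 to 25.8), and ends beside a gene of unknown strand in 14 of 365 (3.84%, 2.11 to 6.35).

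**Figure D3:**
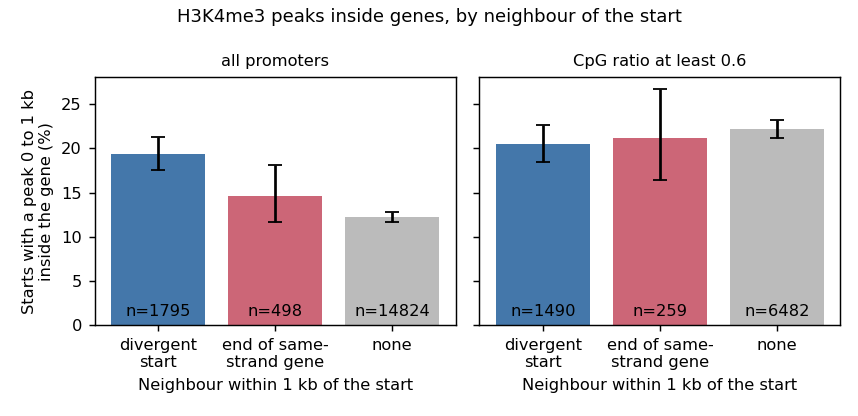
Share of gene starts with an H3K4me3 midpoint 0 to 1 kb inside the gene (vertical axis, %), by neighbour of the start (horizontal axis), with exact 95% intervals as error bars and the number of starts in each bar. Over all promoters (left) divergent starts stand at 19.3% and starts with no neighbour at 12.3%. Among promoters with a CpG ratio of at least 0.6 (right) the 3 bars are 20.5%, 21.2% and 22.2%.

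The share of divergent pairs with a peak ran from 25.8% to 38.8% over classes of the gap between the starts. Of 903 divergent pairs in the gene table, 296 had a peak at a start (32.8%, 29.7 to 35.9). The share was 29.1% (24.1 to 34.4) of 320 overlapping pairs, 35.2% (29.7 to 41.0) of 290 pairs 0 to 100 bp apart, 38.8% (31.9 to 46.0) of 196 pairs 101 to 300 bp apart, 25.8% (15.8 to 38.0) of 66 pairs 301 to 600 bp apart and 25.8% (11.9 to 44.6) of 31 pairs 601 to 1000 bp apart. These intervals overlap throughout, which does not show that the shares are equal, and no difference was tested.

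The promoter sequences of the members were richer in CpG than most. Over 564 starts at divergent members the median 300-base window had 25 CpG, a CpG ratio of 0.870 and a GC content of 63.0%. Starts at 76 tandem members had 19 CpG, a ratio of 0.718 and 59.7%. The 1980 starts at one-end peaks had 22.5, 0.796 and 62.3%, and all 17492 protein-coding promoters had 13, 0.577 and 56.3%. The 1218 divergent starts with no H3K4me3 peak, at 23 CpG, a ratio of 0.816 and 61.7%, were also well above all promoters.

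Motif shares differed between the sets of starts for some motifs and hardly for others; none of these differences was tested. The ETS site (CCGGAAG, either strand) was in 27.5% of windows at divergent members, in 25.6% at divergent starts with no peak, in 18.2% at one-end peaks and in 11.9% of all promoters. The YY1 core (AAGATGGC) was in 10.5%, 5.50%, 4.34% and 3.21% of the same sets. The windows of a divergent pair overlap where the starts are close, so a single site can be counted for both genes. The GC box was in 67.4% at divergent members, 62.2% at divergent starts with no peak, 71.6% at one-end peaks and 46.3% of all promoters. The E-box was in 12.9%, 10.3%, 10.8% and 7.91%, and the CRE (TGACGTCA) in 4.08%, 3.53%, 3.23% and 2.33%. The NRF1 core, at 5.67%, 5.83%, 5.86% and 3.61%, and the CCAAT box, at 41.8%, 41.2%, 41.1% and 39.2%, differed little between the sets with starts of these kinds. TATA boxes were in 5.67% at divergent members, 5.42% at divergent starts with no peak, 7.63% at one-end peaks and 13.3% of all promoters. Tandem members had the GC box in 77.6%, the ETS site in 28.9%, the TATA box in 11.8%, the CCAAT box in 35.5%, the NRF1 core in 5.26%, the YY1 core and the E-box in 2.63% each, and the CRE in 1.32% of 76 windows.

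Members rested on many fragments and had low folds. Their median fold was 1.54, against 1.55 at one-end peaks, 1.95 inside genes, 2.58 between genes and 1.66 over all peaks. The median member rested on 193 fragments over a background of 126, one-end peaks on 185 over 120, peaks inside genes on 70.5 over 34.6, and peaks between genes on 34.5 over 11.8. A fold of at least 2 was reached by 32 members (5.89%, 4.07 to 8.22), by 356 one-end peaks (13.4%, 12.1 to 14.7) and by 30.3% of all peaks. The deposited q-value was at most 0.01 in 427 members (78.6%, 74.9 to 82.0), in 74.2% of one-end peaks (72.5 to 75.9) and in 72.5% of all peaks. The control behind the background was not stated in the sources used here, so what the background holds cannot be told. Divergent members had a median fold of 1.51 and tandem members of 1.59.

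**Figure D4:**
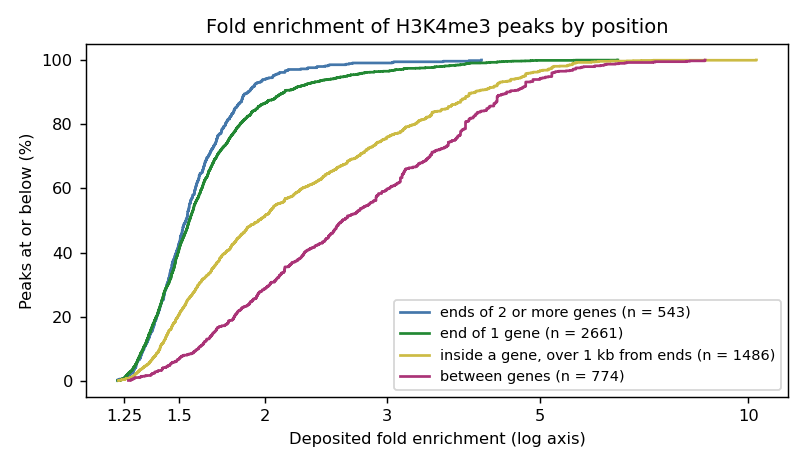
Share of peaks at or below a deposited fold enrichment (vertical axis, %; horizontal axis fold, log scale), 1 line for each position class. Members (median 1.54) and one-end peaks (1.55) run together up to about their medians; members then stay lower in fold, and peaks inside genes (1.95) and between genes (2.58) lie to the right.

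Most of the members of highest fold that are reported here had few fragments. Scrib, an epithelial polarity gene, and Iqank1 shared a peak of 3.94-fold with 14 fragments over 2.80 (chr15:76047006-76047451). Others were Ap3b2 with BC048679 (3.62-fold, 34 fragments), Ccl27b with Il11ra2, described above, and Tars2, a mitochondrial threonyl-tRNA synthetase, with Ecm1, an extracellular matrix gene (3.05-fold, 42). The Tars2 peak was at the end of that gene, with the midpoint 421.5 bp inside Ecm1. Nefh, a neurofilament gene, with Ap1b1 had 2.47-fold on 57 fragments. The exceptions in depth were Maz with Kif22 and Dbp with Car11. Maz encodes a zinc finger factor that binds GC-rich promoters and Kif22 a mitotic kinesin, and their peak had 163 fragments over 61.7 (2.62-fold, deposited −log10 q of 20.4), 70 bp before the start of Maz.

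Dbp carried members on both sides of its start. Their peaks were at 2.46-fold with 127 fragments over 51.0, centred 554 bp inside Dbp, and at 2.44-fold with 136 fragments over 55.2, centred 573.5 bp before its start and inside Car11, a carbonic anhydrase-related gene. The clock gene list, which counts Dbp, had 2 of 19 genes at a member (10.5%), against 4.54% of all protein-coding genes. Any H3K4me3 peak within 1 kb of an end was found at 13 of the 19 (68.4%), against 16.1% of all. The other listed gene at a member, Per3, had 1.39-fold on 182 fragments.

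The members with most fragments were at Fbl, the nucleolar methyltransferase fibrillarin, with Dyrk1b (304 over 148, 2.05-fold, −log10 q of 22.9), at Serpinb6a with Ripk1, a kinase of cell death signalling (278, 1.60-fold), at Rabl6 with Ccdc183 (275, 1.73-fold), at Kif5a with Dctn2, both of microtubule transport (275, 1.53-fold), and, level with each other, at Ccni with 2010109A12Rik and at H3c15 with H2ac19 (269 each). The divergent members of highest fold were H2-T22 with Gm6034 (2.38-fold), Nt5c2 with Ina (2.25), Efcab9 with Stk10 (2.15), Pdzd11 with Kif4 (2.14) and Aurka with Cstf1. Among opposite-strand genes with starts over 1 kb apart, the highest were H3c3 with H2bc3 (1.88) and Samd4b with Gmfg (1.78), which are separated by a gap, and then the overlapping Prune1 with Mindy1 (1.698), Dnajc7 with Nkiras2 (1.69) and Wnt9b with Wnt3 (1.59). Other arrangements were led by Prn with Prnp, the prion protein gene (1.90), Wnt5b with Gm52875 (1.83), Cdca4 with Gm52009 (1.76), Tmem255b with Gas6 (1.68) and Anp32a with Gm20346 (1.66).

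Members were spread over 20 chromosomes, with 59 on chromosome 11, 43 on chromosome 7, 42 on chromosome 8 and 41 on chromosome 17. The 41 on chromosome 17 are 15.5% of the 264 H3K4me3 peaks of chromosome 17, while the X chromosome had 4 of 96 (4.17%).

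Histone genes were by far the most frequent of the gene groups examined. Of 85 histone genes, 36 had an end at a member (42.4%), against 4.54% of all 21887 protein-coding genes. Any H3K4me3 peak within 1 kb of an end was found at 64 of the 85 (75.3%), against 16.1% of all. A gene was counted by either end, so a count does not place the peak at its start. A member also needs ends of 2 genes close together, and 14824 of 17492 starts had no neighbour within 1 kb. The share of this and every other gene list at members therefore depends on gene spacing too, which was not matched. The 36 genes gave 29 members between histone genes alone, 22 on chromosome 13 and 7 on chromosome 3, where the replication-dependent histone genes are clustered. Of these, 16 were divergent and 7 tandem. Their folds ran from 1.37 to 1.998 with a median of 1.64, on a median of 140 fragments, against a median fold of 1.52 at the other 514 members. H2ac22 with H2bc22 had the highest, 1.998-fold on 171 fragments over 85.1, centred 174.5 bp inside H2ac22, and a second peak of 1.60-fold on 132 fragments 263 bp inside H2bc22. H2ac11 with H2bc11 had 1.93-fold on 104 fragments. Of the 32 pairs with a peak on each side, 6 were histone pairs. Histone genes are near-identical copies, and no source used here states whether fragments that map to several of them were kept, so the values of single histone genes are uncertain.

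DNA damage and repair genes were at members in 8 of 56 (14.3%), against 4.54% of all protein-coding genes. Any H3K4me3 peak within 1 kb of an end was found at 14 of the 56 (25%), against 16.1% of all. The highest fold was at Xrcc1, a scaffold of single-strand break repair, with Pinlyp (2.05-fold, 74 fragments). Xrcc4, which acts in end joining, followed with Tmem167 (1.85, 162), then Wrn, the Werner syndrome helicase, with Purg (1.75, 171), Chek2, a checkpoint kinase, with Hscb (1.64, 179), and Prkdc, the catalytic subunit of DNA-dependent protein kinase, with Mcm4, of the replicative helicase (1.55, 166). Xrcc3 (1.40), Apex1 (1.37) and Brca1 (1.32) were the lowest, and at Apex1 and Brca1 the −log10 q was 1.54 and 0.722. Of the 5 repair genes in a divergent pair, only Xrcc4 had the midpoint inside the repair gene, 358 bp from its start. At Apex1 it was 318 bp inside Osgep, a tRNA modification gene, and at Brca1 231 bp inside Nbr1, an autophagy receptor gene. Repair genes beyond the first 3 are named after their values were seen.

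Of 56 p53 target genes, 6 were at a member (10.7%), against 4.54% of all protein-coding genes, and 30 had any H3K4me3 peak within 1 kb of an end (53.6%), against 16.1% of all. Tap1, a peptide transporter of antigen presentation, stood at 2 members: with Psmb8, an immunoproteasome subunit (1.59-fold, 142 fragments), and with Psmb9, another (1.45-fold, 203), where the midpoint was 666 bp inside Tap1. At the Psmb8 member the midpoint was 26.5 bp inside Psmb8 and 996.5 bp from the end of Tap1. Xpc, which recognises damage in nucleotide excision repair, shared 1.52-fold on 151 fragments with Lsm3. Polh shared 1.39-fold on 260 fragments over 187 with Xpo5, a nuclear export factor of microRNA precursors, and the midpoint was 238.5 bp inside Xpo5. Trp53, the p53 gene itself, and Wrap53 shared 1.37-fold on 188 fragments, 453 bp inside Trp53, with starts 98 bp apart. Apaf1, of the apoptosome, shared 1.36-fold on 231 fragments with Ikbip, 367 bp inside Apaf1. Trp53 and Wrap53 are counted for the same peak, so the 6 genes are not independent. Trp53, Wrap53 and Apaf1 are named after their values were seen.

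Interferon-induced genes were at members in 6 of 34 (17.6%), against 4.54% of all protein-coding genes. Any H3K4me3 peak within 1 kb of an end was found at 13 of the 34 (38.2%), against 16.1% of all. Beside Tap1, Psmb8 and Psmb9 the genes at members were Eif2ak2, the double-stranded RNA-activated kinase PKR (1.97-fold, 156 fragments), Ifit1 with Ifit1bl2 (1.95, 41) and Irf9, a transcription factor of interferon signalling, with Rnf31 (1.81, 65). Tap1, Psmb8 and Psmb9 are neighbours, so these 6 genes are not independent.

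Mitochondrial genes were often at members: 12 of 78 mitochondrial ribosomal protein genes (15.4%), led by Mrps34 (1.65-fold), Mrpl50 (1.63) and Mrpl49 (1.60), and 13 of 96 genes of the respiratory chain and ATP synthase (13.5%), led by the complex I subunit Ndufb3 (1.88) and the assembly factor Ndufaf3 (1.82). At divergent members the midpoint lay inside the mitochondrial ribosomal gene for 4 of 10 and inside the respiratory gene for 3 of 8. Aminoacyl-tRNA synthetases had 5 of 33 (15.2%), with Tars2, where the peak was at its end and inside Ecm1, and then Wars (1.72). Splicing factors had 8 of 63 (12.7%), led by Prpf31 (1.79) and Sf3a1 (1.63), and proteasome genes 6 of 51 (11.8%), led by Psmc5 (1.63). Chaperones had 9 of 84 (10.7%), with the chaperonin subunits Cct3 (1.82) and Cct6a (1.78), and RNA polymerase and Mediator genes 5 of 58 (8.62%), with Med9 (1.94) and Polr2l (1.79). Cytosolic ribosomal protein genes had 8 of 99 (8.08%), with Rps25 (1.498). Any H3K4me3 peak within 1 kb of an end was also more frequent in these groups than in all protein-coding genes (16.1%). The shares were 26.9% for mitochondrial ribosomal, 28.1% for respiratory, 30.3% for synthetase, 38.1% for splicing and 37.3% for proteasome genes. They were 33.3% for chaperone, 24.1% for polymerase and Mediator and 34.3% for cytosolic ribosomal genes. An excess particular to shared ends was not tested. Of the H3K4 methylation machinery, Men1 (1.66) and Kdm5a (1.44) were at members, 2 of 19 (10.5%), and 7 of 19 had any peak (36.8%). The Men1 peak was tandem, at the end of Men1, with its midpoint 392.5 bp inside Map4k2.

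Some groups stood near or under the background of 4.54%. Cell cycle genes had 2 of 40 (5.00%), Aurka and Mcm4, ubiquitin ligases and proteases 5 of 97 (5.15%) with Usp5 (1.84), solute carriers 15 of 375 (4%) with Slc5a6 (1.85), and zinc finger protein genes 5 of 397 (1.26%) with Zfp830 (1.65). Transmembrane proteins of unassigned function had 15 of 238 (6.30%), with Tmem203 (2.07-fold on 249 fragments). None of 1465 olfactory and vomeronasal receptor genes and none of 109 keratin and keratin-associated genes had an end at a member. Any H3K4me3 peak within 1 kb of an end was found at 17 of the 40 cell cycle genes (42.5%), against 16.1% of all. The share was 18.6% for ubiquitin, 16% for solute carrier, 15.6% for zinc finger and 15.5% for transmembrane genes. It was 3.67% for keratin and 0% for receptor genes.

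Few marker genes of skin cell types had an end at a member, against 4.54% of all protein-coding genes. These lists are short, so a count of 0 does not set a single list apart from that share. No difference was tested. None of 34 epidermal differentiation genes, 30 genes of basal keratinocytes and hair follicle stem cells, 20 dermal fibroblast, 15 endothelial, 19 immune, 14 adipocyte or 15 skeletal muscle genes had an end at a member, and 1 of 11 melanocyte genes did, Pmel with Rab5b (1.38-fold, 263 fragments). Among all H3K4me3 peaks, 4 of the 34 epidermal and 6 of the 30 basal genes had one within 1 kb of an end (11.8% and 20%), and 0 of the 19 immune genes, against 16.1% of all protein-coding genes. The shares were 10% for fibroblast, 6.67% for endothelial, 14.3% for adipocyte, 6.67% for muscle and 9.09% for melanocyte genes. Of 20 ubiquitously active genes 0 were at a member and 4 had any such peak, so a gene with no listed peak is not shown to lack the mark.

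**Figure D5:**
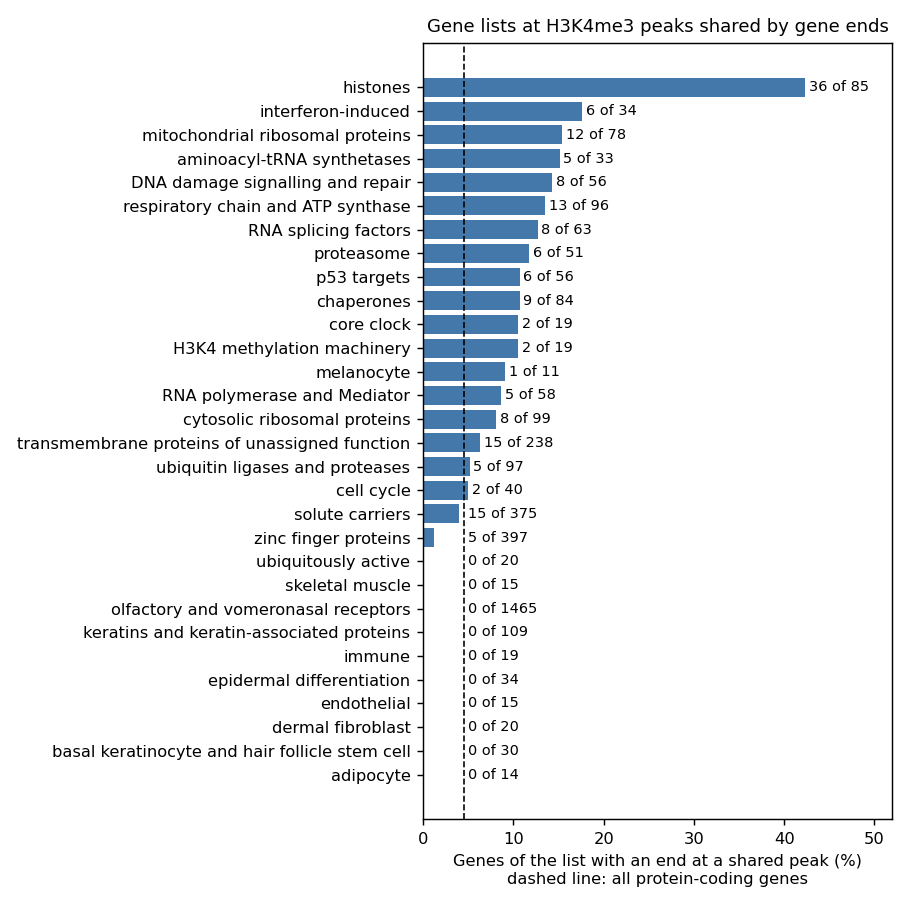
Share of the genes of each list (vertical axis) with an end within 1 kb of a member (horizontal axis, %), with the counts beside the bars. The dashed line is the 4.54% of all protein-coding genes. Histones, at 36 of 85, stand far above the line, and the skin cell type lists, apart from melanocyte, are at 0.

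Whether p53 peaks lay at these promoters was examined in both p53 lists, counting an overlap of at least 1 bp. K17KO p53 peaks overlapped 9 of the 543 members (1.66%, 0.761 to 3.12), 41 one-end peaks (1.54%) and 1.24% of all H3K4me3 peaks. WT p53 peaks overlapped 1 member (0.184%, 0.00466 to 1.02), 13 one-end peaks (0.489%) and 0.512% of all H3K4me3 peaks. Both shares of the members include the share of all H3K4me3 peaks within their intervals. By the same rule of position applied to the p53 lists, 33 of 1101 K17KO p53 peaks (2.997%, 2.07 to 4.18) and 14 of 2909 WT p53 peaks (0.481%, 0.263 to 0.806) lay at the ends of several genes. The p53 lists were separate and have no replicate, so the difference between the genotypes was not tested.

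The K17KO p53 peaks at members rested on 6 to 16 fragments. The highest fold was at Hsp90b1, an endoplasmic reticulum chaperone, with Ttc41 (7.67-fold, 14 fragments over 0.956, chr10:86704882-86705193). Hmmr, a hyaluronan receptor of the mitotic spindle, and Nudcd2 had 5.84-fold on 16 fragments over 1.91, and their H3K4me3 peak was among the weakest members, at 1.29-fold with a −log10 q of 0.415. Next were Tma7 with Ccdc51 (5.66-fold, 10 fragments), Mrpl40 with Hira, a histone chaperone (5.21, 10), Adprm with Sco1 (5.11, 9), Noa1 with Polr2b, of RNA polymerase II (4.96, 15), and Slc49a4 with Hspbap1 (4.87, 12). Fbxo45 with Wdr53 (3.599, 6) and Arl16 with Hgs (3.43, 11) were the lowest, with −log10 q of 1.07 and 1.46. The H3K4me3 folds of these 9 members ran from 1.29 to 1.78, within the range of the other members.

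The p53 and H3K4me3 midpoints were 31.5 to 315 bp apart. Of the 7 divergent pairs, the p53 midpoint was nearer to a start than the H3K4me3 midpoint in 4. At Adprm with Sco1 it was at -3.5 bp from the Adprm start, at Tma7 with Ccdc51 at -21.5 bp from the Tma7 start (negative is before it), and at Mrpl40 with Hira 77.5 bp inside Hira, where the H3K4me3 midpoint was 215.5 bp inside. At Hmmr with Nudcd2 it was 440 bp inside Nudcd2, and the H3K4me3 midpoint 635.5 bp inside. In the other 3 it was farther: 407 against 247.5 bp inside Hsp90b1, 404 against 372.5 bp inside Slc49a4, and 564.5 against 379 bp inside Arl16. Over the 7 pairs the median distance to the nearer start was 404 bp for p53 and 247.5 bp for H3K4me3. The WT p53 peak at a member was at the tandem pair H2ac18 and H3c14 (4.72-fold, 8 fragments over 0.906, −log10 q of 1.52, chr3:96246985-96247200). Its midpoint was 407 bp past the H3c14 start, and the H3K4me3 midpoint was 326.5 bp past it. H3K4me3 there was 1.73-fold on 188 fragments. None of the p53 target genes at members had a p53 peak overlapping the member in either list. Since 0.512% of all H3K4me3 peaks overlapped a WT p53 peak and 1.24% a K17KO one, so few members cannot show a difference.

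At the 1 kb limit, the last members inside were Sec61a2 with Dhtkd1 (999 bp to the second gene, 1.60-fold), Tap1 with Psmb8 (996.5 bp, 1.59-fold) and Trub2 with Coq4 (996.5 bp, 1.66-fold). The first peaks outside were at Chst10 with Gm51581 (1007 bp, 1.88-fold), Zdhhc24 with Actn3 (1011 bp, 1.76-fold) and Shf with Duox1 (1015 bp, 1.60-fold).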

How the data were processed

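Chromatin immunoprecipitation peaks were analysed as the authors deposited them, in 3 lists with no header. Bowtie2 version 2.2.5, SAMtools version 1.7, MACS2 version 2.1.2 and mm10 are named in the submitters' processing notes, with no role. No source used here gives the libraries, control or threshold behind a list. The deposited fold enrichment (a ratio) and the −log10 p- and q-values come from the authors' peak caller and were used only within a list; the deposited score and the peak positions are the authors' too. Fragments and background at the summit were solved from fold and −log10 p, as deposited, for 100% of the 5464 H3K4me3 peaks, within 0.001.

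Gene ends came from the RefSeq table of GRCm38.p6 (21887 protein-coding genes, each with its outermost ends). Strand came from the RefSeq promoter table, for 79.9% of them. Intervals are exact Clopper-Pearson intervals at 95%; neighbouring peaks and genes are not independent, and no test was made. Scripts used Python 3.11.15, pandas 2.3.3 and SciPy 1.17.1 and were tested on simulated data. The members and gene lists were chosen with earlier results of these data known. Named were the 10 members of highest fold (2 of them, the highest included, are not reported here), the 5 with most fragments, the 5 of highest fold in each arrangement, all that overlap a p53 peak, up to 3 per gene list, and those at the limit. Alternative windows, overlaps, gene models and peak thresholds were tried.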

Additional observations from a re-analysis of the deposited data

How the results depend on the processing

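Of 53 alternatives, 16 fell outside the 95% interval of the reported value (for the number of members, beyond 1.5 times it), and 37 did not. The interval of the WT p53 share is wide, since 1 member overlaps: with a p53 midpoint within 1 kb as the criterion, 3 members had one (0.552%). With a 500 bp window there were 320 members, 5.86% of H3K4me3 peaks, of which 85.4% of those with a known arrangement were divergent and 0% overlapped a WT p53 peak. With a 2 kb window the share was 13.7% of peaks, and 61.7% of those with a known arrangement were divergent. Without the 1886 predicted gene models the share was 9.06%. At a q-value of at most 0.01 it was 10.8%, with a median fold of 1.58. Among the upper 50% of peaks by fold there were 159 members, 5.82% of those peaks, with a median fold of 1.82, 94.3% of them at that q-value, and, of those with a known arrangement, 64.2% divergent. When starts had to be at most 500 bp apart, 68.4% of those with a known arrangement were divergent. When at least 50% of the p53 peak had to be covered, the K17KO p53 share was 0.368%, which is 2 of the 9 members. Divergent pairs stayed the most frequent arrangement in each of these settings. No paired analysis was possible because the lists name no libraries and their columns carry no replicate number, and for the same reason no library could be left out. The H3K4me3 fold is low, over a high background, which limits what a missing peak can show.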
